A study of Mus musculus with 9 samples.

Results

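Eukaryotic translation initiation factors are the proteins that bring a messenger RNA, the small ribosomal subunit and the initiator tRNA together, and the transcripts of their genes were followed here in 9 RNA sequencing libraries from mouse hematopoietic cells. The genes were taken from the deposited count table by symbol: every name that begins with Eif and a digit from 1 to 6, without the eIF4E-binding proteins (Eif4ebp), the eIF2 kinases (Eif2ak) and names marked as pseudogenes. The rule gave 49 genes of 47480. They comprise 4 genes of eIF2, 5 of eIF2B, 14 of eIF3, 13 of the eIF4 family and 13 other factors. Of the 49 genes, 47 had enough counts to be tested. The other two, Eif4e1b, a germ-line form of the cap-binding protein, and Eif2c5, which carries an old Argonaute-type name and is a lincRNA in the GENCODE M21 annotation, had 0 counts in all libraries, which allows at most 0.125 CPM in the library where this limit is highest (3 counts; counting error only).

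The cells came from C57BL/6 mice and fall into 2 populations. LSK cells, sorted as lineage-negative, Sca-1-positive and Kit-positive in common usage, are labelled as stem cells, and MP cells are labelled as progenitor cells. Each population was sampled as total RNA, set aside from the cell lysate, and as polysomal RNA, from the seventh of 10 fractions of a sucrose gradient, where messages that carry several ribosomes sediment. The groups hold 2 LSK total, 2 LSK polysomal, 2 MP total and 3 MP polysomal libraries, and every cell was exposed to cycloheximide, which holds ribosomes on their messages, at 100 ug/ml before lysis. The age and sex of the animals, how many animals were pooled and which libraries share a lysate could not be read from the labels. A p-value therefore sets a difference between groups against the scatter of these libraries, part of which may be technical.

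Initiation proceeds in steps that the gene names follow. The eIF4 proteins bind the cap of the message, unwind its leader and link it to the ribosome through eIF4G; eIF3, the largest of the factors, scaffolds the small subunit; eIF2 delivers the initiator tRNA as a complex with GTP; and eIF2B reloads eIF2 with GTP, the step that eIF2 kinases block under stress. eIF1, eIF1A and eIF5 govern scanning and the choice of the start codon, and eIF5B joins the large subunit. Blood stem cells are known for a low rate of protein synthesis compared with the progenitors they give rise to.

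Total counts lay between 27342343 and 34807735 per library. The stem cell markers Procr, Hlf, Mecom, Ly6a, Fgd5 and Hoxb5 summed to 318 to 423 CPM (TMM-scaled counts per library of 1e6 counts) in LSK and 10.03 to 15.3 CPM in MP libraries. Erythroid markers summed to 327 to 618 CPM in LSK and 3658 to 6034 CPM in MP, and granulocyte precursor markers to 4759.7 to 11792 and 30728 to 55058 CPM. A few libraries stood apart from their group. MP total 1 and MP polysomal 1 held 14259.5 and 17700.2 CPM of maturing neutrophil markers against at most 1001 CPM in the other MP libraries, and LSK total 2 and LSK polysomal 2 held 4270.1 and 3278 CPM of B cell markers against 597 and 868 CPM in the other LSK libraries. LSK polysomal 2 was also low in transcripts of low GC content and high in GC-rich ones: its mean log2 deviation from the 9-library mean was −1.08 at 40% GC and 1.33 at 60% GC, while the other libraries ranged from −0.45 to 0.93 and from −1.20 to 0.70.

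As a set, the initiation factor messages took a larger share of the libraries in MP than in LSK cells. Their summed level was 10868 ± 1172 CPM in LSK total (SD, n = 2), 12581 ± 489 CPM in LSK polysomal (n = 2), 15833 ± 418 CPM in MP total (n = 2) and 17653 ± 1216 CPM in MP polysomal RNA (n = 3). The lowest MP library, at 15538 CPM, lay above the highest LSK library, at 12927 CPM. The order did not depend on the scaling: with library totals alone the highest LSK library held 13844 and the lowest MP library 14841 CPM, and with DESeq2's size factors 12588 and 15241 CPM. Abundant members carry most of such a sum, among them Eif5a, Eif4g2, Eif4h and Eif4a1, and the summed level was not tested. The heat map of all 47 genes shows that single members did not all follow it.

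**Figure D1:**
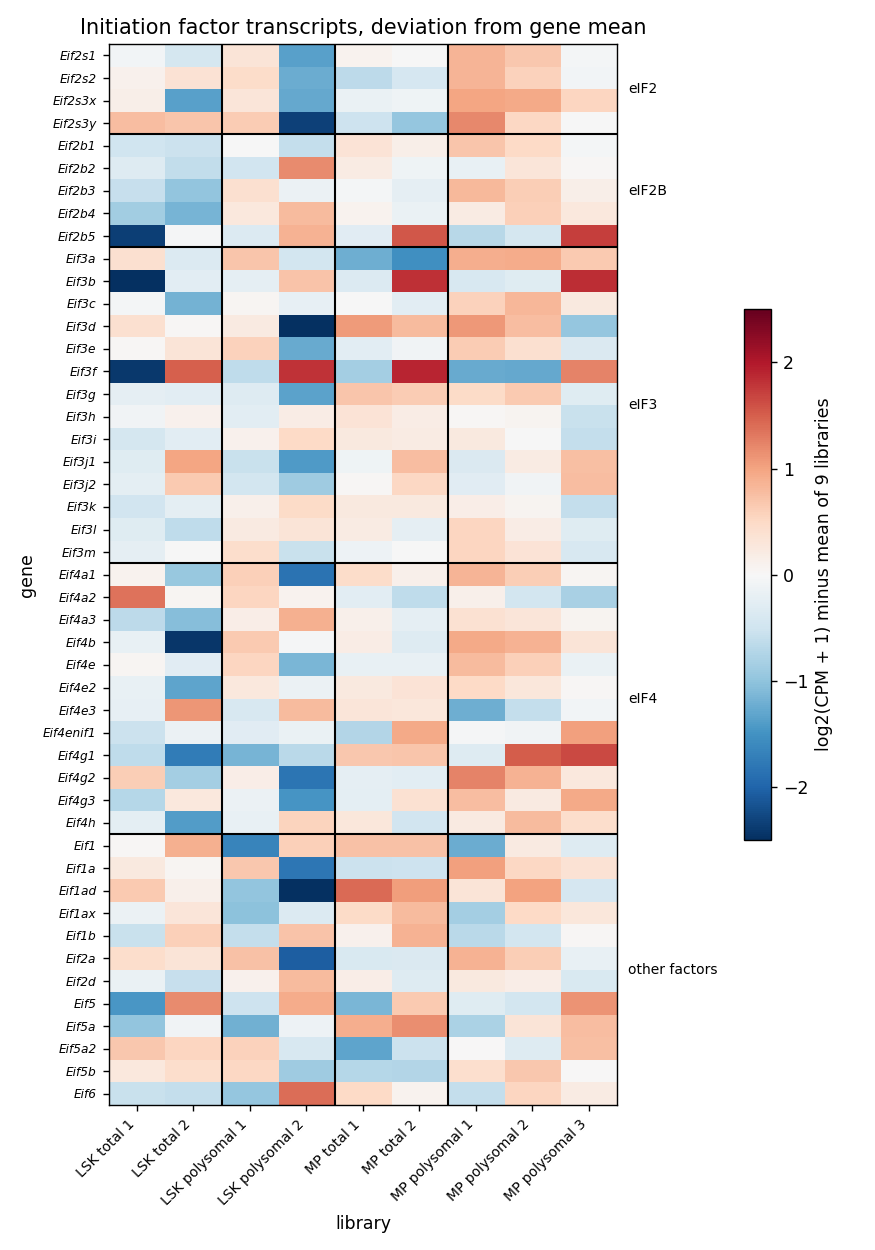
Deviation of each of the 47 tested initiation factor genes (vertical axis, ordered by factor) from its own mean over the 9 libraries (horizontal axis), as log2(CPM + 1), with the colour scale capped at both ends. LSK polysomal 2 is low for Eif3d and Eif1ad, at 15.9 and 8.31 CPM, and Eif3b and Eif3f are high in MP total 2, at 929.6 and 344 CPM, and low in LSK total 1, at 35.8 and 16.3 CPM.

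Gene by gene, few differences stood out from the spread between libraries. Each gene was tested with edgeR's quasi-likelihood test, with Benjamini-Hochberg adjustment over all 16426 genes tested. Between MP and LSK, 0 of the 47 genes passed in total RNA, where 1.09% of all genes tested did, and 0 passed in polysomal RNA, where 3.35% did. Between polysomal and total RNA, 0 passed in LSK and 0 in MP cells, and 0% of all genes did so in either. The same held for the interaction, which asks whether the polysomal-to-total difference differs between the populations, and for the polysomal-to-total difference averaged over the populations (0% of all genes in both). Averaged over the fractions, MP against LSK cells gave 1 gene, Eif4g1, where 10.1% of all genes passed and 2.72% passed as higher in MP.

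At an unadjusted p under 0.05 the counts were 4 of 47 genes between populations in total RNA (17.1% of all genes), 3 in polysomal RNA (17.8%), 3 between fractions in LSK (12.1%), 1 between fractions in MP (7.57%), 1 for the interaction (5.29%), 6 for the population average (24% of all genes) and 5 for the fraction average (14.9%). These shares of the 47 genes lie near or below those of all genes. The direction was less even. In total RNA 33 of 47 genes had a fitted log2 change above 0 in MP (49.8% of all genes), in polysomal RNA 32 (48.6%), and between fractions 25 in LSK (50.8%) and 29 in MP (45.3%). The libraries of both groups did not overlap, with MP higher, for 19 genes in total RNA (22.8% of all genes) and 10 in polysomal RNA (15%), and with MP lower for 9 (28.5%) and 0 (17.4%). Polysomal libraries lay wholly above total ones for 11 genes in LSK (16.2%) and 14 in MP (16.3%), and wholly below for 6 (20.6%) and 7 (16.4%).

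The eIF4 family holds the gene that passed. Eif4g1 encodes the main eIF4G scaffold, which binds the cap-binding protein eIF4E, the helicase eIF4A and eIF3, and lies at chr16:20668313-20692884 (GRCm38, GENCODE M21). Its level was 233 and 107 in LSK total RNA, 161 and 224 in LSK polysomal RNA, 579 and 586 in MP total RNA and 287, 1037 and 1130.2 in MP polysomal RNA CPM. All 5 MP libraries lay above all 4 LSK libraries, with MP polysomal 1 the lowest of the MP and LSK total 1 the highest of the LSK libraries. Group means were 170.0 ± 89.4 and 193 ± 44.6 CPM in LSK total and polysomal RNA (SD, n = 2 each), and 582 ± 4.61 (n = 2) and 818 ± 462 CPM (n = 3) in MP total and polysomal RNA. Averaged over the fractions, Eif4g1 was 3.81-fold higher in MP cells, with a log2 fold change of 1.93 (SE 0.47) and an edgeR adjusted p of 0.0314.

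Without overlap between the populations, Eif4g1 is 1 of 47 genes that lay higher in every MP library (4.34% of all genes tested), and 0 of 47 lay lower in every MP library (8.51%). Within total RNA its log2 fold change was 1.78 (SE 0.68), with an edgeR adjusted p of 0.223, and within polysomal RNA 2.08 (SE 0.66), with an edgeR adjusted p of 0.124, so neither fraction passed alone. Eif4g1 no longer passed when LSK total 2, LSK polysomal 1, LSK polysomal 2, MP total 1, MP total 2, MP polysomal 2 or MP polysomal 3 was left out, with edgeR adjusted p-values from 0.0591 to 0.1003, and passed without LSK total 1 or MP polysomal 1. Over these 9 fits its log2 fold change stayed between 1.70 and 2.28. Total and polysomal libraries of a population may come from the same lysate, which the average over fractions does not take into account. With the replicate number as a block, the log2 fold change of Eif4g1 was 1.72 and it no longer passed, with an edgeR adjusted p of 0.0586. Granulocyte and erythroid markers also differed between the populations, as given above, and their part in the Eif4g1 result was not tested. MP polysomal 1 and MP total 1, which share the neutrophil markers, held 287 and 579 CPM of Eif4g1.

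Further eIF4 genes were described by the same fits. Eif4a1 and Eif4a2 encode the interchangeable forms of the eIF4A helicase, at chr11:69666936-69672423 and chr16:23107444-23114136. Because Eif4g1 passed and the ratio of these helicases separated the populations, the 150 bases that precede the RefSeq start of each gene are shown 5′ to 3′ (RefSeq, GRCm38.p6), with capitals for GGGCGG (the GC box), CCAAT and CACGTG (the E box that Myc and Max bind), each on either strand. The windows are chr16:20672577-20672726 (plus strand), chr11:69672424-69672573 (minus strand) and chr16:23107318-23107467 (plus strand). For each gene only the first start listed was used. The Eif4g1 window lies inside the gene span given above, so the gene has an annotated start further upstream that is not shown.
Eif4g1: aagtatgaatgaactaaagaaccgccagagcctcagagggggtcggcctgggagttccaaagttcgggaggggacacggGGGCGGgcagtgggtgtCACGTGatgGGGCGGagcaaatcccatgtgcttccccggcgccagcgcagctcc
Eif4a1: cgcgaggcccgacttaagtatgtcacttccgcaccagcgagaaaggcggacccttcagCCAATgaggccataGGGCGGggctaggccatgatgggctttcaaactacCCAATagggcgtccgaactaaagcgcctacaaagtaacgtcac
Eif4a2: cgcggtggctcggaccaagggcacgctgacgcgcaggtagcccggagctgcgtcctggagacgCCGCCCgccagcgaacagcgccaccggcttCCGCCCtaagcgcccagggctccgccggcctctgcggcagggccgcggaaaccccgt

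In these windows CACGTG stands in the sequence before Eif4g1 only, at base −54 from the start, between copies of GGGCGG at −71 and −45. The Eif4a1 window holds CCAAT at −92 and −43 and GGGCGG at −78, and the Eif4a2 window, with a GC content of 76%, holds GGGCGG on the other strand at −87 and −57. A longer window ran from 250 bases before to 50 after the start. In it CACGTG was found for 8 of the 38 tested members with a RefSeq promoter (21.05%), among them Eif4g1 and also Eif4a1. The share was 10% of the 10717 tested genes that have a RefSeq promoter. GGGCGG was found for 76.32% against 61.97%, and CCAAT for 28.95% against 38.5%. CCGGAAGT, a motif of the ETS factors, was found for 15.79% against 8.015%, and TATAAA for 10.53% against 7.399%. A match of letters describes the window and does not show that a factor binds there.

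The level of Eif4a1 was 763 and 374 in LSK total RNA, 1094 and 201 in LSK polysomal RNA, 994 and 792 in MP total RNA and 1305, 1108 and 745 in MP polysomal RNA CPM. LSK polysomal 2 was the lowest library, and LSK polysomal 1 lay among the MP libraries, so the populations overlapped. Eif4a2 stood at 268 and 108 in LSK total RNA, 152 and 111 in LSK polysomal RNA, 86.7 and 66.3 in MP total RNA and 114, 75.8 and 58.6 in MP polysomal RNA CPM. Its 2 total libraries of MP lay below those of LSK, and over both fractions MP polysomal 1 overlapped with LSK total 2 and LSK polysomal 2. The log2 fold change of Eif4a2 was -0.98 (SE 0.39) averaged over the fractions, with an edgeR adjusted p of 0.157, and -1.29 (SE 0.59) in total RNA, with an edgeR adjusted p of 0.3005, so it did not pass.

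Within a library, the ratio of both helicase transcripts does not depend on how libraries are scaled. Eif4a1 had 1.81 to 7.21 times the counts of Eif4a2 in the 4 LSK libraries and 11.4 to 14.6 times in the 5 MP libraries. The populations did not overlap, and in log2 the mean ratio was 1.75 ± 0.83 in LSK (SD, n = 4) and 3.63 ± 0.15 in MP (SD, n = 5). LSK polysomal 2 had the lowest ratio, yet without any single library the difference of means stayed between 1.58 and 2.24, around 1.88 with all of them. This difference was described without a test, and reads of the many Eif4a1 pseudogene copies may be counted with or apart from the gene. The transcript GC content is 48.1% for Eif4a1 and 40.2% for Eif4a2. At 40% GC the mean log2 deviation was 0.93 and 0.85 in LSK total and −0.45 and −0.30 in MP total libraries. In polysomal libraries it was 0.23 and −1.08 in LSK and 0.24, −0.13 and −0.12 in MP. The part of the GC trend in the ratio was not tested.

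**Figure D2:**
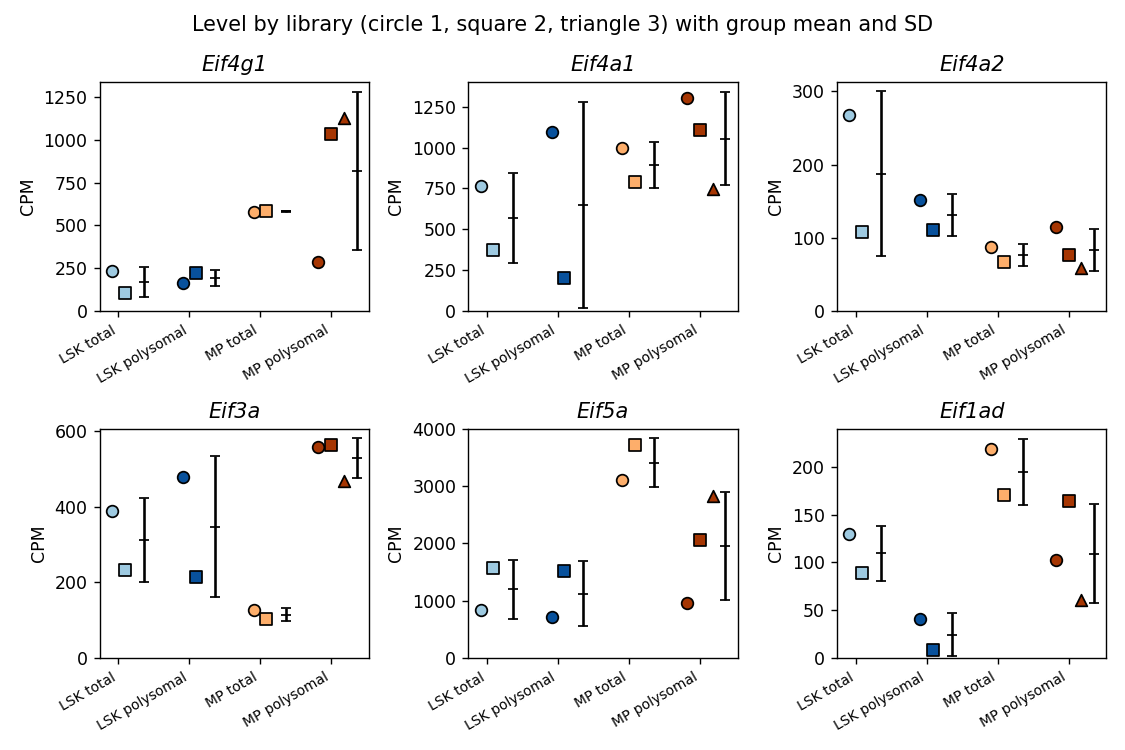
Level in CPM (vertical axis, from 0) of 6 initiation factor genes in each library, by group (horizontal axis), with the group mean and SD as bars beside the points. Eif4g1 lies higher in all 5 MP than in all 4 LSK libraries, and Eif3a is lowest in both MP total libraries, at 126 and 103 CPM.

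The relatives of eIF4G and eIF4E passed in none of the 7 comparisons made with edgeR. Eif4g2, also called DAP5, which lacks the eIF4E-binding part, stood at 2246 and 812 in LSK total RNA, 1632 and 413 in LSK polysomal RNA, 1249 and 1223 in MP total RNA and 3429.6, 2658 and 1752 in MP polysomal RNA CPM, and Eif4g3, the second full-length eIF4G, at 32.5 and 64.1 in LSK total RNA, 48.3 and 18.6 in LSK polysomal RNA, 44.8 and 70.1 in MP total RNA and 92.1, 62.8 and 104 in MP polysomal RNA CPM. For both genes the 3 MP polysomal libraries lay above both LSK polysomal libraries, of which LSK polysomal 2 was by far the lower. Between populations in polysomal RNA the log2 fold change was 1.35 (SE 0.66) for Eif4g2, with an edgeR adjusted p of 0.334, and 1.37 (SE 0.60) for Eif4g3, with an edgeR adjusted p of 0.276. In MP cells, polysomal over total RNA gave 1.08 (SE 0.66) for Eif4g2, with an edgeR adjusted p of 0.746. The interaction was 1.66 (SE 0.95) for Eif4g2 and 1.12 (SE 0.86) for Eif4g3, with edgeR adjusted p-values of 0.877 for both. The count ratio of Eif4g1 to Eif4g2 ran from 0.0989 to 0.544 in LSK and from 0.0836 to 0.645 in MP libraries, and that of Eif4g1 to Eif4g3 from 1.67 to 12.1 and from 3.11 to 16.5, so both ratios overlapped between the populations.

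Eif4e, the cap-binding protein itself, was measured at 223 and 175 in LSK total RNA, 311 and 96.8 in LSK polysomal RNA, 188 and 188 in MP total RNA and 372, 326 and 193 in MP polysomal RNA CPM, with LSK polysomal 2 lowest and MP polysomal 1 highest. Eif4e2, known as 4EHP, which binds the cap but does not recruit eIF4G, stood at 130.4 and 58.4 in LSK total RNA, 177 and 133 in LSK polysomal RNA, 174 and 188 in MP total RNA and 207, 180.1 and 150.3 in MP polysomal RNA CPM. LSK total 2 was the lowest library, and in total RNA MP over LSK gave a log2 fold change of 0.94 (SE 0.51), with an edgeR adjusted p of 0.398. Eif4e had 0.728 to 3.0 times the counts of Eif4e2 in LSK and 1.00 to 1.81 times in MP libraries, which overlapped. Eif4e3, an atypical cap-binding form, stood at 18.2 and 46.8 in LSK total RNA, 15.8 and 37.3 in LSK polysomal RNA, 26.2 and 26.1 in MP total RNA and 8.47, 13.7 and 20.0 in MP polysomal RNA CPM. The MP polysomal libraries lay below both MP total libraries, with a log2 fold change of -0.90 (SE 0.63) and an edgeR adjusted p of 0.796. Eif4enif1, which encodes the eIF4E transporter, ranged from 38.1 CPM in MP total 1 to 131 CPM in MP polysomal 3.

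The cofactors of the helicase and its nuclear relative had their lowest levels in LSK total RNA. Eif4b, which stimulates eIF4A, was measured at 529 and 110.0 in LSK total RNA, 946 and 590.4 in LSK polysomal RNA, 681 and 479.7 in MP total RNA and 1153, 1103 and 752 in MP polysomal RNA CPM, and Eif4h, a related cofactor, at 856 and 387 in LSK total RNA, 897 and 1505 in LSK polysomal RNA, 1236 and 737 in MP total RNA and 1200.5, 1776 and 1379 in MP polysomal RNA CPM. Eif4a3, the eIF4A-like helicase of the exon junction complex, stood at 284 and 213 in LSK total RNA, 496 and 825 in LSK polysomal RNA, 485 and 379 in MP total RNA and 583, 549 and 467 in MP polysomal RNA CPM. For all 3 genes both LSK polysomal libraries lay above both LSK total libraries, and LSK total 2 was the lowest of the 9. Polysomal over total RNA in LSK gave a log2 fold change of 1.41 (SE 0.46) for Eif4a3, with an edgeR adjusted p of 0.267, 1.27 (SE 0.68) for Eif4b, with an edgeR adjusted p of 0.496, and 0.95 (SE 0.54) for Eif4h, with an edgeR adjusted p of 0.517. In MP cells Eif4b gave 0.79 (SE 0.63), with an edgeR adjusted p of 0.835. The interaction of Eif4a3 was -1.11 (SE 0.61), with an edgeR adjusted p of 0.877, and its fraction average 0.86 (SE 0.31), with an edgeR adjusted p of 0.233. Per kilobase of exon, which allows levels to be compared between genes, Eif4a3 was the highest eIF4 gene at 224 CPM per kb and Eif4g3 the lowest tested at 5.40, as means over the 9 libraries.

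Among the eIF3 subunits, Eif3a had the smallest p-value between fractions, which it reached in MP cells. It encodes the largest subunit, around which the octamer core of eIF3 is built. Its level was 389.9 and 233 in LSK total RNA, 479.8 and 215 in LSK polysomal RNA, 126 and 103 in MP total RNA and 558, 564 and 469 in MP polysomal RNA CPM. Both MP total libraries lay below the other 7, and the 3 MP polysomal libraries were 3 of the 4 highest. In MP cells polysomal RNA exceeded total RNA by a log2 fold change of 2.21 (SE 0.51), with an unadjusted p of 0.00162 in edgeR and an edgeR adjusted p of 0.656 over all genes, so the difference did not pass. With DESeq2 the adjusted p was 0.0401. The MP over LSK change of Eif3a in total RNA was -1.45 (SE 0.52), with an edgeR adjusted p of 0.194. The interaction was 2.06 (SE 0.71), with an edgeR adjusted p of 0.877, and the fraction average 1.19 (SE 0.36), with an edgeR adjusted p of 0.163.

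Eif3g, an RNA-binding subunit, was measured at 219 and 213 in LSK total RNA, 203 and 100.5 in LSK polysomal RNA, 414 and 401 in MP total RNA and 359, 404 and 206 in MP polysomal RNA CPM. Within each fraction the MP libraries lay above the LSK libraries, and over both fractions only MP polysomal 3, at 206 CPM, overlapped with the LSK range. Its population average was 1.00 (SE 0.35), with an edgeR adjusted p of 0.113, from 0.92 (SE 0.52) in total RNA, with an edgeR adjusted p of 0.417, and 1.09 (SE 0.49) in polysomal RNA, with an edgeR adjusted p of 0.281. Eif3c, a core subunit that binds eIF1 and eIF5, stood at 421 and 191 in LSK total RNA, 455 and 381 in LSK polysomal RNA, 436 and 365 in MP total RNA and 655, 774 and 517 in MP polysomal RNA CPM, and in MP polysomal over total RNA at a log2 fold change of 0.69 (SE 0.46), with an edgeR adjusted p of 0.776. Eif3k and Eif3l encode subunits that form a peripheral pair. Eif3k was measured at 189.8 and 224 in LSK total RNA, 290.1 and 369 in LSK polysomal RNA, 313 and 316 in MP total RNA and 299, 277 and 175 in MP polysomal RNA CPM and Eif3l at 335 and 267 in LSK total RNA, 484 and 521 in LSK polysomal RNA, 479.9 and 355 in MP total RNA and 606, 474 and 336 in MP polysomal RNA CPM. In both genes the 2 LSK polysomal libraries exceeded the 2 LSK total libraries. The interaction of Eif3k was -1.0 (SE 0.61), with an edgeR adjusted p of 0.877, and LSK polysomal over total RNA gave 0.74 (SE 0.46) for Eif3l, with an edgeR adjusted p of 0.558.

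Eif3h was the steadiest of the 47 genes over the libraries and the highest eIF3 gene per length, at 158 CPM per kb. Its level was 234 and 268 in LSK total RNA, 208 and 285 in LSK polysomal RNA, 319 and 286 in MP total RNA and 254, 261 and 169 in MP polysomal RNA CPM. The highest library had 1.88 times the level of the lowest, computed on CPM + 1, whereas over the 47 genes this ratio had a median of 4.51 and reached 25.6 in Eif3b, and over 9073 genes whose mean reached 10 CPM its median was 5.07. In MP cells its polysomal over total change was -0.41 (SE 0.40), with an edgeR adjusted p of 0.877. Eif3j1 and Eif3j2, near-identical genes for the loosely bound subunit eIF3j, were the lowest. Eif3j1 stood at 10.1 and 26.1 in LSK total RNA, 8.30 and 4.15 in LSK polysomal RNA, 11.6 and 22.4 in MP total RNA and 9.70, 14.8 and 22.2 in MP polysomal RNA CPM and Eif3j2 at 0.700 and 2.17 in LSK total RNA, 0.465 and 0.0831 in LSK polysomal RNA, 1.07 and 1.88 in MP total RNA and 0.649, 0.892 and 2.42 in MP polysomal RNA CPM. In both genes LSK polysomal 2 was the lowest library, at 4.15 and 0.0831 CPM, the second of which is under the 0.125 CPM that a count of 0 allows there.

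With that library included, LSK polysomal over total RNA gave -1.54 (SE 0.73) for Eif3j1, with an edgeR adjusted p of 0.442, and -2.35 (SE 1.05) for Eif3j2, with an edgeR adjusted p of 0.415. MP over LSK in polysomal RNA gave 1.32 (SE 0.68) for Eif3j1, with an edgeR adjusted p of 0.358, and 2.23 (SE 1.00) for Eif3j2, with an edgeR adjusted p of 0.283. The interaction of Eif3j2 was 2.19 (SE 1.37), with an edgeR adjusted p of 0.877. Eif3j1 had 9.16 to 17.9 times the counts of Eif3j2 in the other 8 libraries (LSK polysomal 2 had only 2 counts of Eif3j2), and reads that fit both copies may be split between them. The other eIF3 subunits, Eif3d, a cap-binding subunit, Eif3e, Eif3i and Eif3m, had group means from 111 CPM (Eif3d in LSK polysomal) to 414 CPM (Eif3e in MP polysomal).

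**Figure D3:**
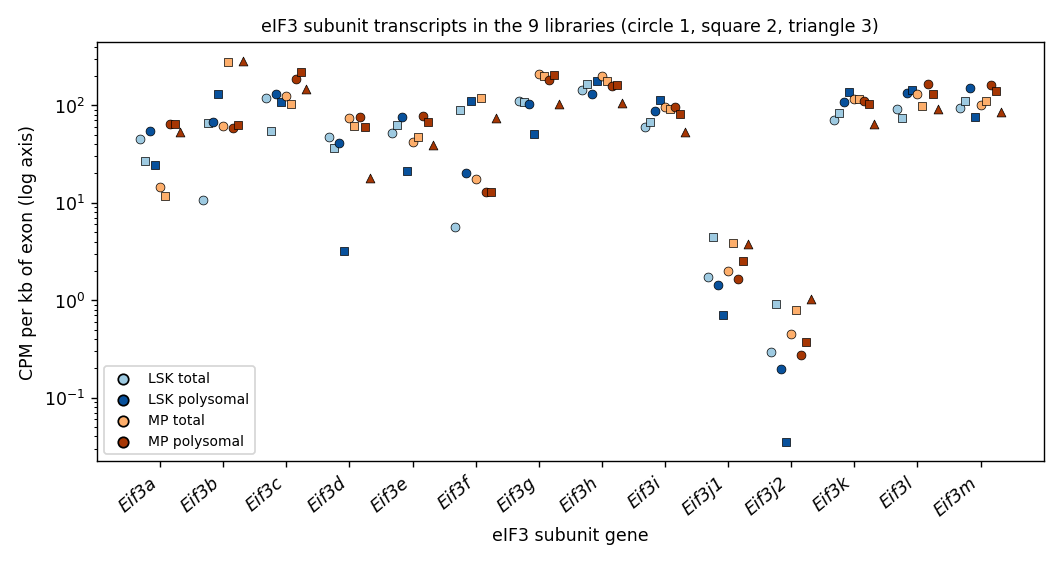
CPM per kb of exon (vertical log axis) of the 14 eIF3 subunit genes (horizontal axis) in the 9 libraries, coloured by group. Eif3j1 and Eif3j2 lie far lower than the other subunits. Eif3b, Eif3f and Eif3d are spread widely within groups. In LSK total RNA Eif3b runs from 35.8 to 219 CPM and Eif3f from 16.3 to 259 CPM. In LSK polysomal RNA Eif3d runs from 15.9 to 205 CPM. The median ratio of highest to lowest library over the 14 genes, computed on CPM + 1, is 3.87.

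Eif3b and Eif3f varied widely between libraries of the same group. Eif3b, the propeller-bearing subunit that binds the small ribosomal subunit, was measured at 35.8 and 219 in LSK total RNA, 223 and 432 in LSK polysomal RNA, 206 and 929.6 in MP total RNA and 197, 212 and 943 in MP polysomal RNA CPM. Eif3f, a core subunit with an MPN domain, was measured at 16.3 and 259 in LSK total RNA, 58.9 and 324 in LSK polysomal RNA, 50.1 and 344 in MP total RNA and 37.4, 37.1 and 216 in MP polysomal RNA CPM. In every group the same libraries were high: LSK total 2, LSK polysomal 2, MP total 2 and MP polysomal 3. In total RNA MP over LSK gave 2.16 (SE 1.10) for Eif3b, with an edgeR adjusted p of 0.360.

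The same 4 libraries lay above the other library of their group, or in MP polysomal RNA above the mean of the other two, in 9 of 47 members (19.1%), against 16.9% of all genes tested and 18.7% of those with a mean of at least 10 CPM. By more than 0.5 in log2 in every group they were higher in 5 of 47 members (10.6%), against 8.52% and 11.2%. Those 5 genes were Eif3b, Eif3f, Eif2b5, Eif5 and Eif1b, so the pattern touched about as large a share of these genes as of the transcriptome. Eif2b5, the catalytic subunit of eIF2B, stood at 11.4 and 60.9 in LSK total RNA, 48.7 and 114 in LSK polysomal RNA, 50.9 and 185 in MP total RNA and 38.4, 45.9 and 209.5 in MP polysomal RNA CPM. Eif5, which makes eIF2 hydrolyse its GTP, stood at 58.0 and 363 in LSK total RNA, 112 and 303 in LSK polysomal RNA, 71.5 and 252 in MP total RNA and 129, 116 and 349 in MP polysomal RNA CPM. LSK total 2 and LSK polysomal 2 of these libraries also held the B cell markers, and MP total 2 and MP polysomal 3, at 163 and 154 CPM of them, did not; the part of the markers in this pattern was not tested.

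Messages with a run of pyrimidines at their first base (5′ terminal oligopyrimidine or TOP messages) are translated under the control of mTOR and Larp1, so start windows are shown for the genes whose annotated start lies in such a run, beside Eif2s3y and Eif4b, whose start does not. Each window is 30 bases around the RefSeq start base (GRCm38.p6), 5′ to 3′, with capitals for the run of C and T that holds that base. They lie at chr7:108934400-108934429 (Eif3f, plus strand), chr16:20498802-20498831 (Eif2b5, plus), chr15:79075208-79075237 (Eif3l, plus), chrX:94212637-94212666 (Eif2s3x, minus), chrY:1010580-1010609 (Eif2s3y, plus) and chr15:102073758-102073787 (Eif4b, plus).
Eif3f: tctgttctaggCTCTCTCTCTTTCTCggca
Eif2b5: CCTTCCTCTTTCTCTCCCTgcaactacacc
Eif3l: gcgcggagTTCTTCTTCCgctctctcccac
Eif2s3x: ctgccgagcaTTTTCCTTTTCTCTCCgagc
Eif2s3y: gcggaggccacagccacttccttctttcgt
Eif4b: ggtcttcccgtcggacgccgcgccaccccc

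The run was 15 bases long in Eif3f, 21 in Eif2b5, where it begins before the window, 10 in Eif3l and 16 in Eif2s3x. A run of at least 8 bases was found for these 4 of 38 members (10.53%), against 3.938% of 10717 genes. With a minimum of 5 bases the same 4 members (10.53%) stood against 9.182% of genes, so the contrast depended on the minimum chosen. Eif4b, Eif3e, Eif3f and Eif3h are textbook TOP messages, yet the annotated start of Eif4b lies outside a run, so a RefSeq start need not be the base where transcription begins in these cells. For those 4 genes the median log2 fold change was 0.22 for polysomal over total RNA in LSK and 0.02 in MP cells, and 0.39 and 0.12 for MP over LSK in total and polysomal RNA, with 0 of 4 genes passing in each. Over all genes tested the 4 medians were 0.02, −0.08, −0.01 and −0.03.

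The 4 genes of eIF2 shared a low value in LSK polysomal 2 and their highest value in MP polysomal 1. Eif2s1 encodes the alpha subunit, which the eIF2 kinases phosphorylate, and stood at 298 and 231 in LSK total RNA, 394 and 123 in LSK polysomal RNA, 333 and 313 in MP total RNA and 569.7, 500.5 and 306 in MP polysomal RNA CPM. Eif2s2 encodes the beta subunit, the contact for eIF5 and eIF2B, and stood at 87.3 and 104 in LSK total RNA, 111 and 33.5 in LSK polysomal RNA, 50.8 and 60.0 in MP total RNA and 146, 120.1 and 76.9 in MP polysomal RNA CPM. LSK polysomal 2 was the lowest of the 9 libraries in both, and MP polysomal 1 the highest. All 4 eIF2 genes have transcripts of low GC content, from 39.5% to 44.1%, the range in which that LSK library was low across the transcriptome (the medians after removal of the GC trend are given with the complexes).

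The gamma subunit, which binds GTP and the initiator tRNA, has a gene on each sex chromosome of the mouse. Eif2s3x stood at 23.9 and 7.80 in LSK total RNA, 27.1 and 8.39 in LSK polysomal RNA, 19.2 and 20.0 in MP total RNA and 43.7, 42.5 and 32.1 in MP polysomal RNA CPM and Eif2s3y at 101 and 95.6 in LSK total RNA, 92.5 and 10.8 in LSK polysomal RNA, 41.2 and 29.8 in MP total RNA and 137, 84.9 and 58.8 in MP polysomal RNA CPM. The Y-linked copy was the higher in every library, with 1.29 to 12.2 times the counts of the X-linked copy in LSK and 1.49 to 3.13 times in MP, which overlapped. Other Y-linked genes also had counts in all 9 libraries and Xist was at most 0.474 CPM. These copies are alike in sequence, so reads may be assigned to the wrong partner. In MP cells all 3 polysomal libraries lay above both total libraries for Eif2s2, Eif2s3x and Eif2s3y, while for Eif2s1 MP polysomal 3, at 306 CPM, lay below both. Markers of cycling cells (Mki67, Top2a, Cdk1, Ccnb1 and Birc5) were all detected in every library. Their sum was 1615 and 809.7 CPM in LSK total RNA, 2456 and 950.0 CPM in LSK polysomal RNA, 1173 and 870.1 CPM in MP total RNA and 2627, 2362 and 1534 CPM in MP polysomal RNA. The sum, and each of these genes, was lower in LSK polysomal 2 than in LSK polysomal 1. The sum was higher in each MP polysomal than in both MP total libraries, as were Mki67, Top2a and Ccnb1. Cdk1 and Birc5 were not: MP polysomal 3, at 239.5 and 157.3 CPM, lay below both MP total libraries. The part of these markers in the eIF2 values was not tested.

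Each of the 5 eIF2B subunits had its lowest group mean in LSK total RNA. Eif2b1, Eif2b2 and Eif2b4 encode the alpha, beta and delta subunits that sense phosphorylated eIF2, and Eif2b3 and Eif2b5 the gamma and epsilon subunits that exchange the nucleotide. Eif2b4 was measured at 59.9 and 49.2 in LSK total RNA, 132 and 192 in LSK polysomal RNA, 118 and 98.7 in MP total RNA and 129, 167 and 133 in MP polysomal RNA CPM. All 5 polysomal libraries lay above all 4 total libraries, the only member of 47 for which this held (1.34% of all genes tested), while 0 members lay wholly below (4.9%). Its fraction average was 0.99 (SE 0.31), with an edgeR adjusted p of 0.185, and its change in LSK 1.57 (SE 0.47), with an edgeR adjusted p of 0.234, so it did not pass.

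Eif2b3 stood at 56.1 and 41.6 in LSK total RNA, 112 and 75.2 in LSK polysomal RNA, 81.4 and 72.0 in MP total RNA and 149, 128 and 92.8 in MP polysomal RNA CPM, with a fraction average of 0.81 (SE 0.33) and an edgeR adjusted p of 0.3004. Only LSK polysomal 2, at 75.2 CPM, lay within the range of the total libraries. Eif2b1 stood at 102 and 98.9 in LSK total RNA, 143 and 94.7 in LSK polysomal RNA, 182 and 159.7 in MP total RNA and 233, 204 and 139 in MP polysomal RNA CPM, with a population average of 0.73 (SE 0.32) and an edgeR adjusted p of 0.201. All MP libraries but MP polysomal 3 lay above the LSK libraries. Eif2b2 stood at 84.5 and 69.1 in LSK total RNA, 75.9 and 241 in LSK polysomal RNA, 123 and 98.1 in MP total RNA and 93.8, 131 and 108 in MP polysomal RNA CPM. LSK polysomal 2 was the highest library. Summed over the 5 genes, eIF2B reached 317 ± 4.36 CPM in LSK total (SD, n = 2), 614 ± 146 CPM in LSK polysomal (n = 2), 584 ± 41.0 CPM in MP total (n = 2) and 668 ± 21.5 CPM in MP polysomal RNA (n = 3).

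Compared as complexes, the factors had different orders over the 4 groups. The log2 median of MP over LSK in total RNA was −0.25 for eIF2 (2 of 4 genes above 0), 0.77 for eIF2B (5 of 5), 0.43 for eIF3 (11 of 14) and 0.66 for eIF4 (8 of 12), beside −0.01 for all genes tested. In polysomal RNA it was 0.84 for eIF2 (4 of 4), 0.26 for eIF2B (3 of 5), 0.41 for eIF3 (9 of 14) and 0.46 for eIF4 (9 of 12), beside −0.03. The eIF2B median was thus above 0 in both, with each of its genes above 0 in total RNA. Between polysomal and total RNA in LSK, the medians were −0.22 for eIF2 (1 of 4), 1.05 for eIF2B (5 of 5), 0.16 for eIF3 (8 of 14) and 0.14 for eIF4 (8 of 12), beside 0.02. In MP they were 1.03 for eIF2 (4 of 4), 0.17 for eIF2B (4 of 5), −0.23 for eIF3 (5 of 14) and 0.40 for eIF4 (10 of 12), beside −0.08.

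These medians carry no test, since the genes of a complex are measured in the same libraries. Comparisons that share a group are not independent: a low value in LSK total RNA raises both the population change in total RNA and the fraction change in LSK. Several of them turned on few libraries. Relative to the median of all genes, the eIF2 median in LSK between fractions ranged from −1.01 to 0.65 when single libraries were left out, and that of eIF2 between populations in polysomal RNA from 0.03 to 1.93. After removal of each library's GC trend, a step chosen after seeing the data, the eIF2 median turned from −0.24 to 0.39 in total RNA and from −0.24 to 0.27 between fractions in LSK, and went from 1.11 to 0.65 between fractions in MP. When single libraries were left out, the eIF2B median in total RNA ranged from 0.74 to 1.00 and the eIF2 median between fractions in MP from 0.93 to 1.33. With other settings they went as low as 0.53 for eIF2B (mean of 10 CPM or more) and, without both MP libraries numbered 1, 0.86 for eIF2.

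**Figure D4:**
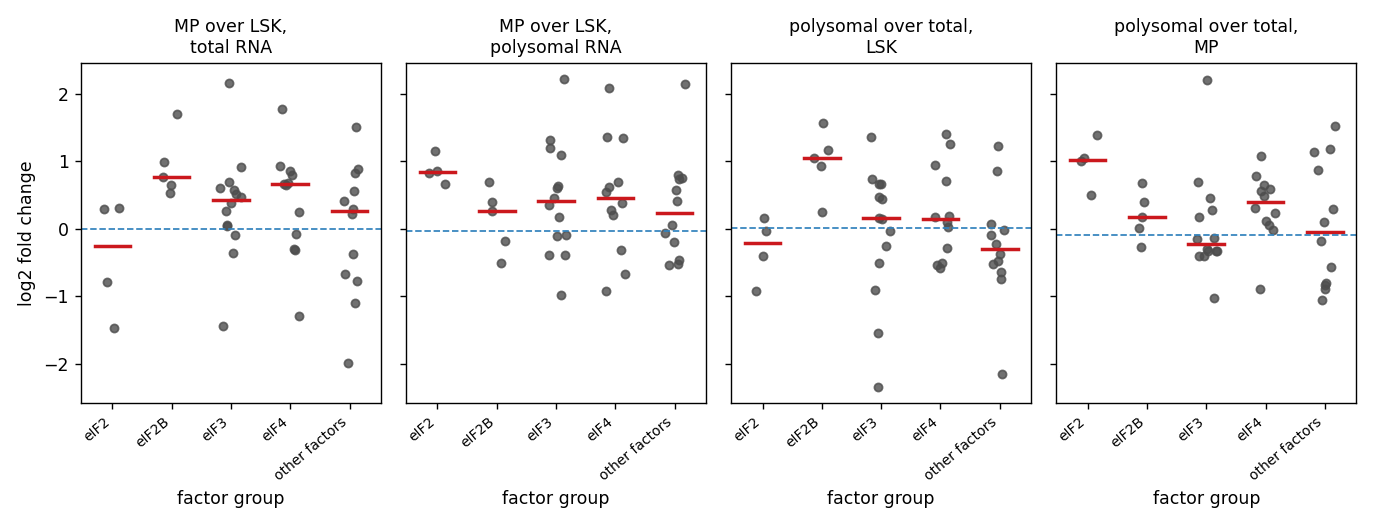
Fitted log2 fold change (vertical axis) of each tested gene, by factor group (horizontal axis), in 4 comparisons, with red bars for the median of the group and a dashed line for the median of all genes tested. The 5 eIF2B genes lie above 0 in total RNA between populations and in LSK between fractions, and the 4 eIF2 genes above 0 in polysomal RNA between populations and in MP between fractions.

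The factors of start codon choice did not move as 1 group. Eif1, which keeps the scanning ribosome open, stood at 409 and 745 in LSK total RNA, 128 and 611 in LSK polysomal RNA, 669 and 671 in MP total RNA and 170.3, 474 and 323 in MP polysomal RNA CPM, and its near-copy Eif1b at 56.4 and 127 in LSK total RNA, 54.9 and 137 in LSK polysomal RNA, 90.6 and 154 in MP total RNA and 52.0, 60.4 and 85.3 in MP polysomal RNA CPM. Eif1 had 2.33 to 7.25 times the counts of Eif1b in LSK and 3.27 to 7.84 times in MP, which overlapped. Eif1a and Eif1ax both encode eIF1A, which works beside eIF1. Eif1a stood at 289 and 252 in LSK total RNA, 393 and 69.0 in LSK polysomal RNA, 169 and 171 in MP total RNA and 499, 350.2 and 315 in MP polysomal RNA CPM and Eif1ax at 136 and 184 in LSK total RNA, 73.5 and 118 in LSK polysomal RNA, 209 and 262 in MP total RNA and 82.5, 213 and 183 in MP polysomal RNA CPM. The X-linked form exceeded Eif1a in counts in both MP total libraries (1.24 and 1.53 times) and in LSK polysomal 2 (1.70 times), and was lower in the other 6.

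Eif1ad, named for an eIF1A-type domain, differed within each fraction without overlap. Its level was 130.0 and 88.9 in LSK total RNA, 40.6 and 8.31 in LSK polysomal RNA, 219 and 170.3 in MP total RNA and 102, 164 and 60.8 in MP polysomal RNA CPM. In each fraction the MP libraries lay above the LSK libraries, and LSK polysomal 2, at 8.31 CPM, was far below all others. MP over LSK gave 2.16 (SE 0.74) in polysomal RNA, with an edgeR adjusted p of 0.156, and 1.49 (SE 0.52) averaged over the fractions, with an edgeR adjusted p of 0.109. Polysomal over total RNA gave -2.16 (SE 0.78) in LSK, with an edgeR adjusted p of 0.299, and -1.50 (SE 0.51) averaged over the populations, with an edgeR adjusted p of 0.209. The population change of Eif1ad rested on single libraries: in polysomal RNA it came to 1.43 when LSK polysomal 2 was left out and reached 3.81 when LSK polysomal 1 was left out, where it passed with an edgeR adjusted p of 0.0490. Averaged over the fractions it also passed without LSK polysomal 1, at 2.29 with an edgeR adjusted p of 0.0244.

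Eif5a was the most abundant member per length, at 808 CPM per kb. The protein carries hypusine and acts in elongation and termination as well as in forming the first peptide bond. Its level was 835 and 1562 in LSK total RNA, 721 and 1518 in LSK polysomal RNA, 3105 and 3712 in MP total RNA and 952, 2056 and 2831 in MP polysomal RNA CPM. Both MP total libraries lay above both LSK total libraries, and MP polysomal 1 was the MP library within the LSK range. The log2 fold change between populations was 1.51 (SE 0.62) in total RNA, with an edgeR adjusted p of 0.249, and 1.15 (SE 0.42) averaged over the fractions, with an edgeR adjusted p of 0.121. Its rare relative Eif5a2 stood at 6.33 and 5.63 in LSK total RNA, 5.85 and 2.49 in LSK polysomal RNA, 0.833 and 2.17 in MP total RNA and 3.62, 2.68 and 6.69 in MP polysomal RNA CPM, with a change of -1.99 (SE 0.77) in total RNA and an edgeR adjusted p of 0.224. The count ratio of Eif5a to Eif5a2 was 123 to 609 in LSK, 1707 and 3729 in MP total and 263 to 768 in MP polysomal RNA, so MP total RNA lay above all other libraries.

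Factors of subunit joining and of other routes to initiation passed in none of the 7 comparisons made with edgeR. Eif5b, the GTPase that joins the subunits, was measured at 51.2 and 57.8 in LSK total RNA, 61.5 and 22.4 in LSK polysomal RNA, 25.5 and 25.3 in MP total RNA and 57.3, 68.5 and 42.7 in MP polysomal RNA CPM. Both MP total libraries lay below all others but LSK polysomal 2. Eif2a, an alternative carrier of initiator tRNA, stood at 88.6 and 81.3 in LSK total RNA, 108 and 14.7 in LSK polysomal RNA, 49.7 and 50.02 in MP total RNA and 118, 99.2 and 57.1 in MP polysomal RNA CPM, and Eif2d, which acts in reinitiation and recycling, at 114 and 86.0 in LSK total RNA, 138 and 224 in LSK polysomal RNA, 144 and 102 in MP total RNA and 152, 143 and 97.8 in MP polysomal RNA CPM. Eif6, which keeps the large subunit from joining too early, stood at 178 and 174 in LSK total RNA, 135 and 694 in LSK polysomal RNA, 374 and 281 in MP total RNA and 174, 385 and 306 in MP polysomal RNA CPM. LSK polysomal 2 had the lowest Eif2a and the highest Eif2d and Eif6 of the 9 libraries. Eif2a has a transcript GC content of 43.6%, Eif2d of 52.3% and Eif6 of 57.9%.

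**Figure D5:**
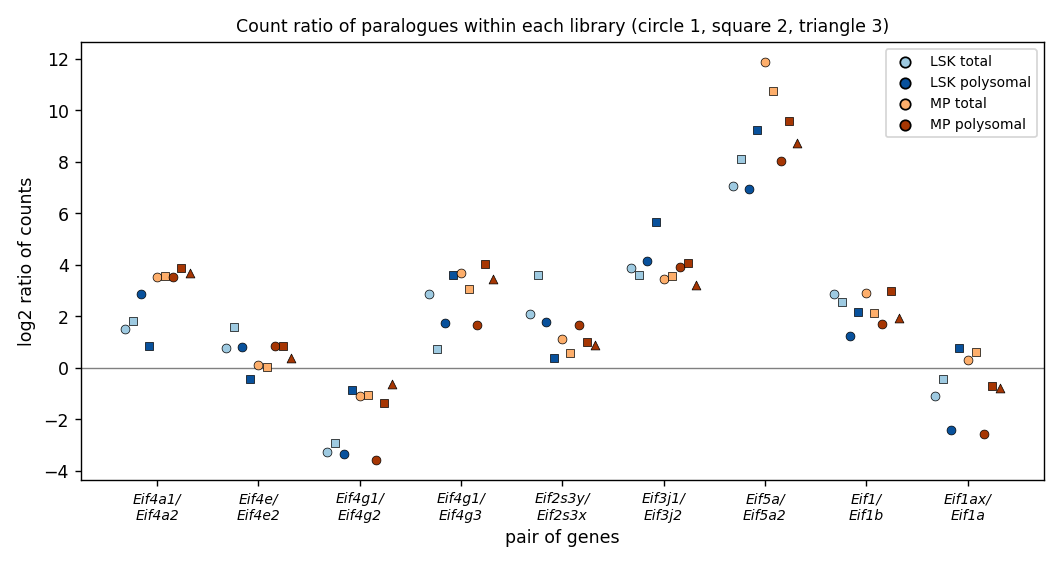
Log2 ratio of counts (vertical axis) for 9 pairs of related initiation factor genes (horizontal axis) within each library, coloured by group. The Eif4a1 to Eif4a2 ratio separates the 5 MP from the 4 LSK libraries, while in the other pairs the populations overlap.

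Other genes of the pathway were taken from a list of 26 regulators, of which 24 were tested. Averaged over the fractions, 2 of 24 were higher in MP (2.72% of all genes tested) and 0 lower. Both set the phosphorylation of eIF2. Eif2ak1, the heme-regulated eIF2 kinase, was measured at 44.4 and 50.9 in LSK total RNA, 39.8 and 45.1 in LSK polysomal RNA, 147 and 148 in MP total RNA and 48.5, 132 and 198 in MP polysomal RNA CPM. The MP libraries other than MP polysomal 1, which held 48.5 CPM, lay above the LSK libraries, of which LSK total 2 was highest at 50.9 CPM. The log2 fold change was 1.60 (SE 0.44), with an edgeR adjusted p of 0.0483. It passed without MP polysomal 1 and in no other fit that left out 1 library, where the edgeR adjusted p was 0.0883 to 0.137. Ppp1r15b, the constitutive subunit that directs a phosphatase to eIF2, was measured at 70.1 and 54.9 in LSK total RNA, 83.5 and 102 in LSK polysomal RNA, 210.3 and 233 in MP total RNA and 137, 213 and 387 in MP polysomal RNA CPM. The MP libraries all lay above the LSK libraries. Its log2 fold change was 1.62 (SE 0.38), with an edgeR adjusted p of 0.0278. It passed without MP polysomal 1 or MP polysomal 3 and in no other such fit, where the edgeR adjusted p was 0.0524 to 0.0995.

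Among the 24 regulators, which include the other eIF2 kinases, the eIF4E-binding proteins, the Mnk kinases, poly(A)-binding proteins and Larp1, 0 passed in total RNA, in polysomal RNA, between fractions in LSK or in MP, and for the interaction. Their median log2 fold change between populations was 0.25 in total RNA, 0.30 in polysomal RNA and 0.35 averaged over the fractions. Eif2ak1 is known from red cell precursors, and the erythroid markers given above were also higher in every MP than in every LSK library. Within MP they did not follow Eif2ak1: MP polysomal 1 had the highest erythroid sum, 6034 CPM, and the lowest Eif2ak1 of the MP libraries, 48.5 CPM, and MP total 1 the lowest sum, 3658 CPM, with 147 CPM of Eif2ak1. The part of the markers in the difference between populations was not tested.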

How the data were processed

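Total and polysomal RNA of LSK and MP cells was amplified with a SMARTer kit and sequenced, per the labels' protocols. The authors deposited raw counts per gene symbol, whole numbers with no normalization. Per the submitters' processing notes the tools were STAR, featureCounts, bcl2fastq and DESeq2, with the builds GRCm38 and mm10. Versions, annotation and strandedness are not given in the labels, and reads of overlapping, antisense or near-identical genes may therefore be merged or split. The authors' table of normalized values was not used here. Each count column was matched to a sample by its title.

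The filterByExpr function (minimum count 10 and total 15, groups as given) kept 16426 of 47480 genes. After TMM scaling, edgeR 4.0.16 (R 4.3.3) fitted 1 quasi-likelihood model, with 4 group means, to the 9 libraries, with 5 residual and 4.58 prior degrees of freedom, and 7 two-sided comparisons were adjusted by the Benjamini-Hochberg method over all genes (threshold 0.05). Exact permutation of 2 against 2 or 2 against 3 libraries cannot pass that threshold, so none is given. The median biological coefficient of variation was 0.558. The procedure was also run on simulated counts, where recovery and false calls were held to limits only at a spread lower than that of these data. CPM use TMM-scaled library sizes. Levels per kilobase use GENCODE M21 exon lengths, and sequences come from RefSeq tables of GRCm38.p6, of which 38 of 47 tested genes had a promoter entry. Only the first promoter window listed for a gene was used.

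The genes and all lists (complexes, TOP messages, regulators, markers) were chosen with earlier results of these data known, so the lists are described by counts and medians without a set test. Every eIF2 and eIF2B subunit and other factor is described, and of eIF3 and eIF4 those that passed, those with the 3 smallest p-values in each of the 4 group comparisons and the interaction, the highest and lowest per length, and all paralogues. Alternatives were DESeq2 1.42.0, its size factors, library totals alone, no filter, a mean of at least 10 CPM, only the groups compared, a replicate block, each library left out and 2 pairs of libraries left out. Removal of each library's GC trend (span 0.3) was added after seeing the data. 1 gene of the marker lists is not reported here.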

Additional observations from a re-analysis of the deposited data

How the results depend on the processing

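Over 889 alternative values of 48 fold changes of named genes the direction changed in 0. These 48 were picked from the same data, mainly for a small p-value, so a stable direction was partly built in. The direction of other fold changes was not followed. Calls changed as follows. The number of initiation factor genes that passed was 1 (Eif3b) in total RNA between populations without a filter on low counts, from 0. In polysomal RNA it was 2 (Eif1ad and Eif4g1) without the filter and 2 (the same genes) with DESeq2, from 0, and 0 to 2 without single libraries. Between fractions in MP it was 1 with DESeq2 (Eif3a, adjusted p = 0.0401), from 0. For the population average it was 4 without the filter, 2 with DESeq2 (Eif4g1 and Eif1ad), and 0 with a mean of at least 10 CPM or without both LSK libraries numbered 2, from 1, and 0 to 2 without single libraries. The edgeR adjusted p of Eif4g1 was 0.0562 with the 10 CPM minimum, 0.0913 without both LSK libraries numbered 2, 0.0302 with DESeq2's size factors, 0.0373 with library totals alone and 0.0166 after removal of the GC trend. DESeq2 itself gave it an adjusted p of 0.00160. Eif2ak1 no longer passed with library totals alone (edgeR adjusted p = 0.0763), the 10 CPM minimum (0.0971), without both MP libraries numbered 1 (0.0998) or without both LSK libraries numbered 2 (0.113), and Ppp1r15b with the 10 CPM minimum (0.0542) or without either of those pairs (0.0932 and 0.0834).

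Over all genes, the numbers passing were 0 with edgeR and 433 with DESeq2 between fractions in LSK, 0 and 18 in MP, 0 and 765 for the fraction average, 179 and 1451 between populations in total RNA and 551 and 1624 in polysomal RNA. Library totals alone moved the median of all genes from −0.01 to −0.36 in total RNA and from 0.02 to −0.36 between fractions in LSK, so medians are given relative to it.

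Relative medians moved by more than the spread of their libraries as follows. In total RNA, eIF2B went from 0.78 to 0.53 (10 CPM minimum) and eIF4 from 0.67 to 0.34 (without both LSK libraries numbered 2). In polysomal RNA without those LSK libraries, eIF2 went from 0.87 to 0.0094, eIF3 from 0.43 to 0.11 and eIF4 from 0.49 to −0.0258. Between fractions in LSK, eIF2B went from 1.03 to 0.79 (10 CPM minimum) and 0.65 (GC trend removed), and without both LSK libraries numbered 2 eIF3 went from 0.14 to 0.48 and eIF4 from 0.13 to 0.41. Between fractions in MP without the filter, eIF2B went from 0.26 to 0.52, eIF3 from −0.14 to 0.12 and eIF4 from 0.48 to 0.75. Leaving out single libraries gave 0.0326 to 1.93, −0.30 to 0.39, 0.13 to 0.63 and −0.0026 to 0.55 for eIF2, eIF2B, eIF3 and eIF4 in polysomal RNA, 0.74 to 1.00, 0.35 to 0.69 and 0.34 to 0.83 for eIF2B, eIF3 and eIF4 in total RNA, −1.01 to 0.65, 0.76 to 1.94, −0.0489 to 0.68 and 0.0648 to 0.57 between fractions in LSK, and 0.17 to 0.49 and −0.23 to 0.34 for eIF2B and eIF3 in MP. The cause of these shifts was not tested.

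The replicate numbers were checked as a block. Same-numbered total and polysomal libraries deviated together in LSK (r = 0.50 across genes) and for MP number 1 (0.51) but not for MP number 2 (−0.63), so the numbers were not taken to pair samples. MP polysomal 3 instead deviated with MP total 2 (0.74) and LSK total 2 (0.71), and number 1 libraries of both populations deviated together in total (0.79) and polysomal RNA (0.75). In a group of 2 libraries the deviations are mirror images (r = −1), so in total RNA the number 2 libraries gave the same 0.79. The values are therefore tied to each other and are not separate observations. Whether libraries share a source that the numbers only partly follow is unknown. With the block, 0 members passed for the population average, Eif4g1 had an edgeR adjusted p of 0.0586, Eif2ak1 of 0.0593, and the relative eIF2B median was −0.0601 in polysomal RNA between populations and 0.47 between fractions in MP.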
